A study of Mus musculus with 15 samples.

Results

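A set of 2215 genomic regions carried a called peak of H3K27Me3, trimethylation of lysine 27 of histone H3, in islets of mice on a high-fat diet (HFD) and in islets of mice on the same diet with the compound O304 (HFD-O304), but not in islets of mice on regular diet (RD). They were chosen by their measured H3K27Me3 peaks. Peaks of the 3 lists that shared at least 1 bp on chromosomes 1 to 19 were joined into 25197 regions, and those with an HFD peak, an HFD-O304 peak and no RD peak were kept. They are called gained and kept regions here. The pattern itself is therefore how the set was made and not a finding, and the fold and q-values of H3K27Me3 are given as description only.

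The mice were CBA males. Diets began at 10 weeks of age and islets were isolated at 20 weeks from animals fed RD, HFD, or HFD formulated with O304 at 0.8 mg/g, which the study describes as an activator of AMPK, the cellular energy sensor. About 600 islets went into a ChIP-seq experiment, with 2 replicates per mark and diet, and the authors merged the replicates before calling peaks. Whole islets were used, so endocrine cells are mixed with vascular, stromal and immune cells, and fewer marked cells cannot be told apart from less mark per cell. With 1 list per mark and diet there is no measure of replicate error, so differences between diets were not tested. Intervals below are 95% Wilson intervals for shares and 95% Newcombe intervals for differences between shares, and they cover counting error over regions only.

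H3K27Me3 is deposited by Polycomb repressive complex 2, whose catalytic subunit is EZH2 or EZH1. It is found over CpG-rich promoters of developmental regulators that a differentiated cell keeps silent, where it can spread into broad domains. Acetylation of the same lysine, H3K27Ac, marks active promoters and enhancers, and a lysine carries only one of these modifications at a time. In beta cells, genes of other lineages and genes whose products would disturb insulin secretion, known as disallowed genes, are kept silent.

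The H3K27Me3 lists rested on 74870300 (RD), 54166902 (HFD) and 57324419 (HFD-O304) fragments kept once duplicates were removed, after 45.7% to 56.9% of the fragments had been removed as duplicates. On chromosomes 1 to 19 they held 14286, 14254 and 20289 peaks. The tissue label was checked with the H3K27Ac lists. Of 23 islet endocrine marker genes, 14 had an H3K27Ac peak at a promoter in RD and 16 under either high-fat diet. Of 10 immune cell markers none did in any diet, of 12 endothelial and stromal markers 1, 1 and 0 did, and of 16 exocrine and duct markers 4, 3 and 4 did.

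The sequences below show what the gained and kept regions are made of, because the set holds CpG-rich promoters beside repeats. All are 300-bp windows of GRCm38, forward strand, with CpG dinucleotides in capitals. The windows at genes lie as near to the centre of the region as possible without touching an annotated exon. Tcerg1l, Tfap2a and Hoxa4 are among the strongest promoters of the set. The regions on chromosomes 13 and 5 are tandem arrays, one repeat-masked and one not, and those on chromosomes 2 and 7 are a pair of copies of the same repeat.
Tcerg1l, chr7:138397731-138398030: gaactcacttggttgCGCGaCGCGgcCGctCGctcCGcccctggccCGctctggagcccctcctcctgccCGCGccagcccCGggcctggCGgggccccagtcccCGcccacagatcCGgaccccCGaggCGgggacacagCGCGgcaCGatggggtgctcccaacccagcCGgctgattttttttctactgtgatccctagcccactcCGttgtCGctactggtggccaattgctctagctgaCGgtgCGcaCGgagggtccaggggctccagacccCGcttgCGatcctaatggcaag
Tfap2a, chr13:40737819-40738118: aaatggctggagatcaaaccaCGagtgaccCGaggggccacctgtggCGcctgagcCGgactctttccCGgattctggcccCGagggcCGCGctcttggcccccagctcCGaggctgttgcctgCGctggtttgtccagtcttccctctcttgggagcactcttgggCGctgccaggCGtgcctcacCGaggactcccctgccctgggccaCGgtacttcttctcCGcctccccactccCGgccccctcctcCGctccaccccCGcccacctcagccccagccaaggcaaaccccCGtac
Hoxa4, chr6:52190878-52191177: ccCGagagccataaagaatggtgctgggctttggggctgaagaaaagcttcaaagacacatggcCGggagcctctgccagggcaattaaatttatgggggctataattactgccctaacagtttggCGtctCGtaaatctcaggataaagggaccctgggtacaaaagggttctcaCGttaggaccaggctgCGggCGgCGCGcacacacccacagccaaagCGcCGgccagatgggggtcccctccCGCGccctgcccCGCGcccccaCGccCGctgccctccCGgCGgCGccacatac
Between genes, chr13:53059556-53059855: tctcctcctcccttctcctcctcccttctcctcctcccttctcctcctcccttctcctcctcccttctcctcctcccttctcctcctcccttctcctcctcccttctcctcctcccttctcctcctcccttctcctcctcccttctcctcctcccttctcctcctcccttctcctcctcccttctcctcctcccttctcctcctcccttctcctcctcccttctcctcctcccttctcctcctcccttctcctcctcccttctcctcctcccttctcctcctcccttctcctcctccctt
Between genes, chr5:36457169-36457468: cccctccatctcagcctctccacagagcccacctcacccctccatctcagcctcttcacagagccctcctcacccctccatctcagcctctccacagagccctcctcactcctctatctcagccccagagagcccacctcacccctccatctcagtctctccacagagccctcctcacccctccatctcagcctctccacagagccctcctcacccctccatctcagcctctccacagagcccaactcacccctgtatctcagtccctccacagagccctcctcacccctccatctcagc
Between genes, chr2:86559913-86560212: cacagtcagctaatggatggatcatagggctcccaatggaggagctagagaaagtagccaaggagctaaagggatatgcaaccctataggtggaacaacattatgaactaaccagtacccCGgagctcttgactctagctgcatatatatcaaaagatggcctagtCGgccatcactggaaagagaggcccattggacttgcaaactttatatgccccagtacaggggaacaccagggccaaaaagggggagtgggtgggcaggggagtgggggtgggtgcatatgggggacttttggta
Between genes, chr7:88783479-88783778: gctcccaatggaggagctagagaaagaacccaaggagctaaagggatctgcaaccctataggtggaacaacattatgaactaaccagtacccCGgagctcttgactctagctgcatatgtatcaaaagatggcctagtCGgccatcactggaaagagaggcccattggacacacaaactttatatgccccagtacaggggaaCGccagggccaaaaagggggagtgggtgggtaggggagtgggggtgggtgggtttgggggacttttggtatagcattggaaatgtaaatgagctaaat

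The 3 promoter windows hold 27, 19 and 20 CpG dinucleotides. Windows of 300 bp at other strong promoters of the set, not shown, ranged from 4 at Gm10553 and 9 at Lhx8 to 30 at Dmrt1. The array on chromosome 13 holds none and repeats a unit of 13 bp without error, since 100% of its bases equal the base 13 bp before. The array on chromosome 5 also holds none, and 83.3% of its bases equal the base 36 bp before, although the reference marks none of the region as repeat. The windows on chromosomes 2 and 7 hold 2 and 3 CpG dinucleotides and are fully repeat-masked. The 2 regions share 168 of their 15-base words, 58.3% of the smaller set, and a region on chromosome 13 (chr13:61521878-61522165) shares 93 with the former and 112 with the latter.

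The first question was how strongly the gained and kept regions were marked. A region had a median length of 891 bp (range 226 to 8707), and 2185 of the 2215 held exactly 1 HFD peak and 1 HFD-O304 peak. HFD peaks covered 1.67 Mb of them and HFD-O304 peaks 1.86 Mb, and in the median region 53.2% of the covered bases lay under peaks of both diets (quartiles 31.6% and 72.3%). The fold enrichment, pileup over the uniform background of the caller, had a median of 3.02 in HFD and 2.99 in HFD-O304. The lowest fold in the HFD list was 2.76 and in the HFD-O304 list 2.69, so most of the set lay little above the limit of calling. The median −log10 q was 3.23 in HFD and 3.35 in HFD-O304. Only 86 regions reached a −log10 q of 5 in both diets, and 396 stayed under 3 in both.

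**Figure D1:**
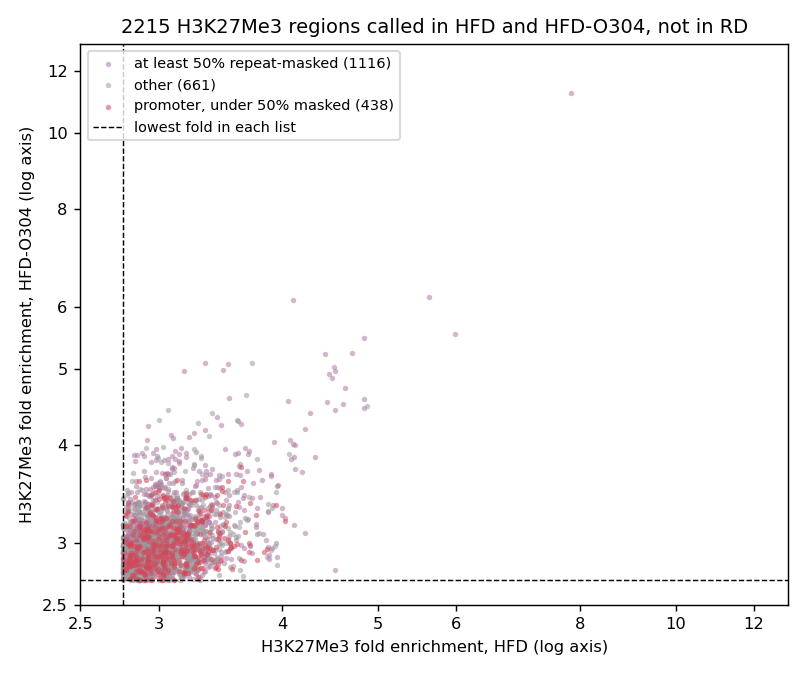
H3K27Me3 fold enrichment of each of the 2215 gained and kept regions in HFD (x axis) and HFD-O304 (y axis), both on log axes, coloured by position and repeat content, with dashed lines at the lowest fold in each list (2.76 and 2.69). Most points crowd above these limits, and the few beyond a fold of 5 in both diets are repeat-masked.

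Across the set the Spearman correlation between the folds of the 2 diets was 0.31 over 2215 regions. It was 0.25 over the 438 promoter regions outside repeats. Regions were kept only where both lists called a peak, so both folds are cut at the limit of their own list. This narrows their range, and nothing is read from these correlations. Scaled to 1000000 kept fragments, the pileup in HFD-O304 was 0.97 times that in HFD in the median region (5th to 95th percentile 0.83 to 1.16), and it was higher in HFD in 1455 regions and higher in HFD-O304 in 760. The lowest scaled pileup in a list was 0.369 in HFD and 0.349 in HFD-O304. A region thus had to pass a higher scaled limit in HFD, which tilts the count towards regions higher in HFD. The count is not read as a difference between the diets.

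Absence from the RD list is a statement about a threshold. The lowest scaled pileup listed in RD was 0.321, below the limits of the other lists. All 2215 regions therefore lie above the RD limit in HFD and HFD-O304 by the way they were chosen, and nothing is read from it. The fold limit of the RD list was lower too, at 2.53, and with a common fold cutoff of 2.76 in all lists the rule gave 3681 regions. The RD signal at these regions was not analysed here. The gained and kept region nearest to an RD peak lay 22 bp from it (chr18:3721288-3722033). Just outside the rule, an RD peak of a region called in all 3 diets shared 4 bp with the other peaks (chr4:91493067-91493585). Of all joined regions, 18.3% were called in HFD without RD and 36.1% in HFD-O304 without RD, which are the patterns the rule combined.

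Most of the strongest regions lay between genes. The 8 regions with the highest smaller value of the −log10 q in HFD and HFD-O304 lay between genes in 7 cases and were at least 50% repeat-masked in 7 cases. At the top stood a stretch of 231 bp in an intron of Gtf2ird1, a transcription factor gene (chr5:134378868-134379098, fully repeat-masked), with a fold of 7.84 in HFD and 11.3 in HFD-O304. It was followed by the copies on chromosome 2 (fold 5.98 and 5.54) and chromosome 7 (5.63 and 6.17) whose sequences are shown above. The 13-bp array on chromosome 13 reached 4.84 and 5.47. The array on chromosome 5 (chr5:36457003-36457636) was the sole one of the 8 with no masked base, with folds of 4.87 and 4.49. In none of these was an RD peak called, the nearest lying 4375 to 402279 bp away. Peaks were called with no control file and no local background, and some of these repeats share sequence with other regions. The folds of these repeats are therefore uncertain.

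Among the 86 regions with a −log10 q of at least 5 in both diets, 66 were at least 50% repeat-masked, 32 were tandem arrays and 7 lay at a promoter. A tandem array is here a region in whose central 300 bp at least 80% of bases equal the base a fixed 2 to 60 bp before. Over the whole set, 130 of 2215 regions (5.87%, 4.96% to 6.93%) were such arrays. The share was 5.92% in regions of HFD alone, a difference of −0.05 points (−1.41 to 1.32), and 9.68% in regions called in all 3 diets, a difference of −3.81 points (−4.92 to −2.59). Copies of the chromosome 2 repeat, regions with at least 30% of its 15-base words, made up 2.62% of the set (58 regions) and 2.50% of the regions of all 3 diets.

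Repeats were less frequent in the gained and kept regions than in the other classes. At least 50% of the bases were repeat-masked in 1116 of 2215 regions, 50.4% (48.3% to 52.5%), and 901 regions were masked throughout. The share was 65.8% in the 8598 regions of all 3 diets, a difference of −15.4 points (−17.7 to −13.1). It was 55.1% in the 2399 regions of HFD alone, a difference of −4.68 points (−7.55 to −1.8), and 69.8% in the 6871 regions of HFD-O304 alone, a difference of −19.4 points (−21.8 to −17.1). Of the bases of chromosomes 1 to 19 as a whole, 33.5% are masked.

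Promoters took a larger part of the set than of any class it was compared with. A region was at a promoter where it came within 1000 bp of the start site of a protein-coding transcript. This held for 444 of 2215 regions, 20.0% (18.4% to 21.8%), against 15.6% of the regions of all 3 diets, a difference of 4.40 points (2.61 to 6.28). Against HFD alone (10.6%) the difference was 9.46 points (7.39 to 11.5) and against HFD-O304 alone (5.85%) 14.2 points (12.5 to 16.0). Another 68 regions had their midpoint in an exon, 438 in an intron and 1265 between genes.

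Repeat content changed this comparison. Among regions under 50% masked, 438 of 1099 gained and kept regions were at a promoter, 39.9% (37.0% to 42.8%), and here the regions of all 3 diets were ahead with 44.6%, a difference of −4.73 points (−8.10 to −1.30). Those regions were longer, with a median of 1770 bp against 1094 bp. When a region was counted by its midpoint alone, the shares were 35.9% and 35.2%, a difference of 0.71 points (−2.58 to 4.05). The distance from the regions of a single diet remained under both counts, with 22.8% at a promoter for HFD alone and 17.7% for HFD-O304 alone by overlap. These regions were short, with medians of 392.5 and 416 bp, and by midpoint they stood at 20.9% and 16.5%. Among the other classes called in a pair of lists, the 237 regions outside repeats of RD and HFD stood at 38.4% (32.4% to 44.7%) by overlap and 36.7% by midpoint, next to the set, and the 526 of RD and HFD-O304 at 15.8% (12.9% to 19.1%) by overlap.

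**Figure D2:**
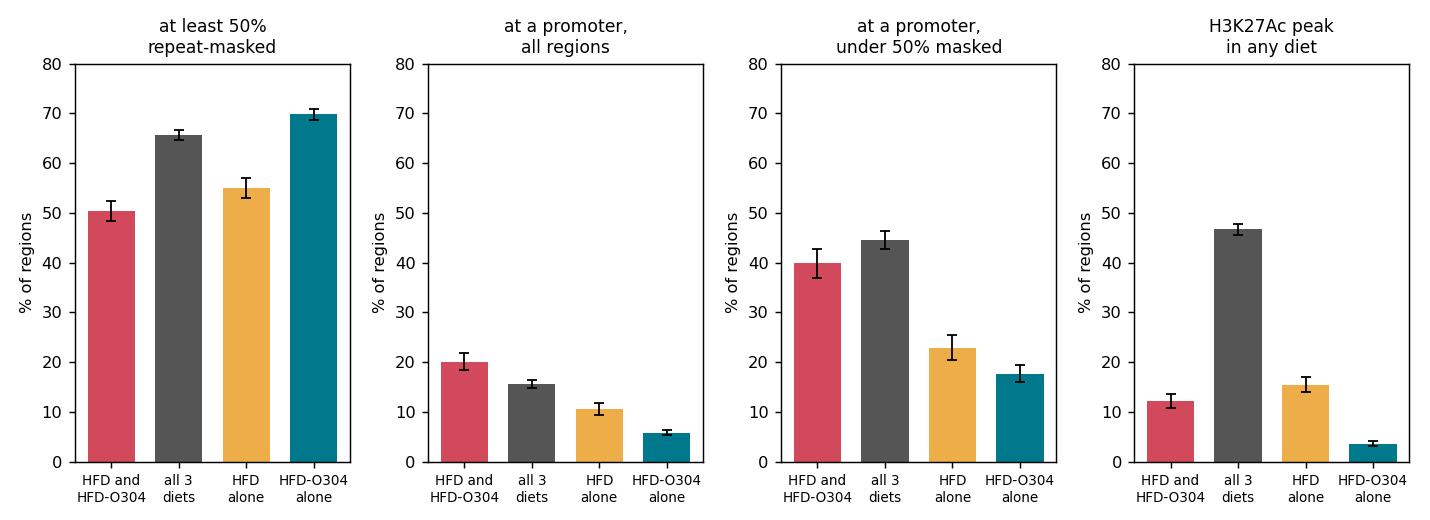
Share of regions in 4 classes, namely the gained and kept regions, regions called in all 3 diets, in HFD alone and in HFD-O304 alone, that were at least 50% repeat-masked, at a promoter (all regions, then regions under 50% masked) or overlapped an H3K27Ac peak in any diet. Bars start at 0 and error bars are 95% Wilson intervals; the gained and kept regions were highest for promoters over all regions (20.0%) and second to the regions of all 3 diets (44.6%) outside repeats.

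Base composition was compared next. In windows of the same 300 bp at the centre of each region, the 438 promoter regions outside repeats held a median of 17 CpG dinucleotides (quartiles 10 and 26). All 1099 gained and kept regions outside repeats held a median of 10, against 9 in the regions of all 3 diets, 6 in HFD alone and 4 in HFD-O304 alone, each outside repeats. Over all regions, repeats included, the order was the other way, with a median of 7 in the set and 12 in the regions of all 3 diets. Repeat-masked gained and kept regions held a median of 5. The ratio of observed to expected CpG over a whole region was 0.60 in the median promoter region of the set and 0.37 in the median masked region.

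The 12 strongest promoter regions outside repeats lay at Tcerg1l, Tfap2a, Lhx8, Cdh3, Gm10553, Kbtbd13, Prr23a1, Hoxa4, Tgfb1, Gbx1, Dmrt1 and Gdpd5. Their HFD folds ran from 3.39 to 3.94 and their HFD-O304 folds from 3.31 to 3.75. At Tcerg1l, a relative of a transcription elongation regulator, 1982 bp were covered in HFD (fold 3.64) and 586 bp in HFD-O304 (3.75), with the nearest RD peak 24395 bp away (chr7:138396765-138398746). At Tfap2a, which encodes the AP-2 alpha transcription factor of the neural crest, the folds were 3.65 and 3.6 over 1528 and 1646 bp (chr13:40737664-40739309). At Cdh3, the gene of P-cadherin, they were 3.48 and 3.54 over 1044 and 1056 bp (chr8:106510920-106512068).

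The 12 included genes of quite different function, and their folds lie in the range given above by the way the 12 were chosen. Kbtbd13, a kelch-repeat gene known from muscle, had folds of 3.71 and 3.37, and Dmrt1, a regulator of testis development, had 3.40 and 3.35. At Gbx1, a homeobox gene of the nervous system, the whole region of 3573 bp (chr5:24525088-24528660) was covered in HFD and 2633 bp of it in HFD-O304, with folds of 3.59 and 3.35 and no RD peak within 84453 bp. An H3K27Ac peak overlapped 2 of the 12, Tgfb1 and Gdpd5. Of all 438 promoter regions outside repeats, 330 overlapped none, so this count does not set the 12 apart. Gm10553 and Prr23a1 belong to families with closely similar neighbouring copies, so their values are uncertain.

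The set reached the promoters of 444 of 20698 protein-coding genes, 2.15%, the same number as its promoter regions since some regions lie at 2 genes and some genes hold 2 regions. Of these genes, 404 had no RD peak at any of their promoters and 40 had one at another place. For comparison, H3K27Me3 lay at a promoter of 1654 genes in RD, of 2059 under HFD, of 2179 under HFD-O304 and of 1295 in all 3 lists. Genes were then grouped by function, with counts to be read against the background of 2.15%. This background includes genes with no H3K27Me3 in any list, so a share above it does not set a family apart from other marked genes.

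Developmental transcription factors were already marked in RD for the most part. Of 39 Hox genes, which pattern the body axis, 38 had a promoter peak in RD, and 3 (Hoxa4, Hoxa10 and Hoxa3) held a gained and kept region. At Hoxa4 (chr6:52189271-52193175) 1318 bp were covered in HFD, fold 3.94, and 3169 bp in HFD-O304, fold 3.35. At Hoxa10 the folds were 3.46 and 3.07, and at Hoxa3 3.15 and 2.76. Hoxa4 was the sole Hox gene with no RD peak at a promoter.

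Among 143 other developmental transcription factors, 110 had an RD peak at a promoter and 20 held a gained and kept region, 7 of them beside an RD peak at another promoter position. The strongest were Lhx8 (fold 3.53 in HFD and 3.6 in HFD-O304), a LIM homeobox gene of forebrain neurons, Gbx1, Hand2 (3.35 and 3.23), which directs heart and limb development, and Pax7 (3.26 and 3.22), a gene of muscle stem cells. The others were Ascl2, En2, Foxf1, Foxf2, Foxl1, Gata4, Gsx2, Irx1, Lhx5, Nkx2-5, Otx2, Six3, Sox14, Sox18, Twist2 and Zic4. These regions tended to lie close to a domain called in RD. The nearest RD peak was within 5000 bp for 11 of the 20 and within 10000 bp for 14, with a median distance of 3805.5 bp. None of the 20 overlapped an H3K27Ac peak in any diet, and neither did 330 of all 438 promoter regions outside repeats.

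The longest gained and kept regions included 2 of these genes. At Gsx2, a homeobox gene of the ventral forebrain, 8707 bp were joined (chr5:75068714-75077420). HFD covered 7169 bp of it with 1 peak at a fold of 3.08, reaching from position −5459 to 1709 in bp from the 5′ end of the gene. HFD-O304 covered 6338 bp with 3 peaks at folds of 2.97 to 3.15. In RD, peaks were called on either side, one ending at position −8201 and one starting at 7452. At Nkx2-5, a heart homeobox gene (chr17:26840447-26846006), HFD covered 4581 bp (fold 3.45) and HFD-O304 2530 bp (fold 3.03), while the RD peaks lay upstream, the nearest 1889 bp from the region. The remaining 3 of the 5 longest lay between genes, with joined lengths of 4511, 4257 and 4182 bp. In the same order, HFD covered 422, 4257 and 1385 bp of them and HFD-O304 4511, 2170 and 4182 bp. The one on chromosome 2 (chr2:9893290-9897546) had its midpoint 5384 bp from the start of Gata3, a regulator of T-cell development. The longest of these 3 (chr13:120256821-120261331) lies in a stretch of closely similar copies, so its value is uncertain.

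**Figure D3:**
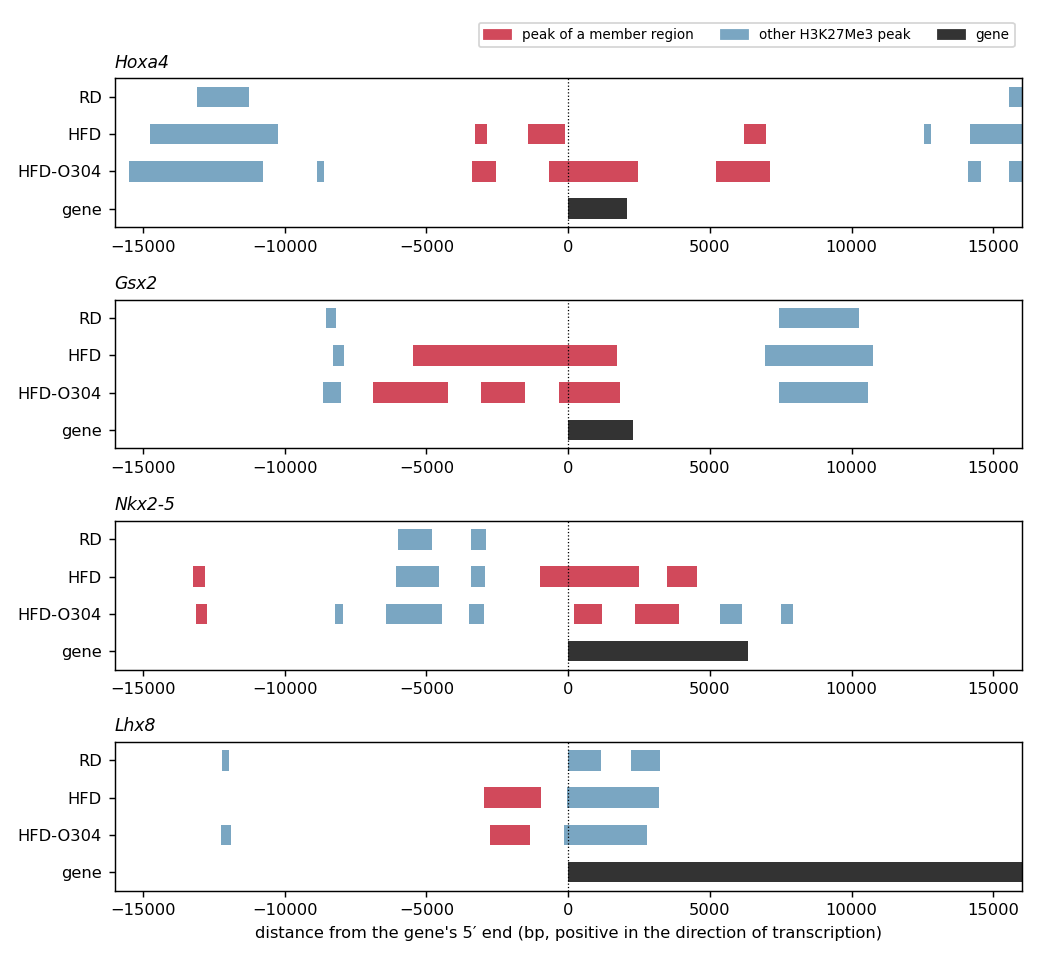
Called H3K27Me3 peaks of each diet within 16000 bp of the 5′ end of Hoxa4, Gsx2, Nkx2-5 and Lhx8, each locus drawn to scale in the direction of transcription (x axis in bp). Bars are called peaks, red where they belong to a gained and kept region; at each locus RD holds peaks in the flanks, and at Lhx8 over the start of the gene as well, but none at the red regions.

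Signalling and excitability genes held gained and kept regions as well, farther from RD peaks by median distance than those of the developmental transcription factors. Over all promoter regions outside repeats, the median distance was 61855 bp. Among 66 Wnt, BMP and FGF ligands and receptors, which carry signals between cells in development, 25 had an RD peak at a promoter, 39 an HFD peak and 38 an HFD-O304 peak, and 11 held a gained and kept region. They were Fgf18 (fold 3.07 and 3.15), Wnt7b (3.54 and 3.0), Bmp6 (3.05 and 3.09), Fzd10 (3.02 and 3.20), Wnt3, Wnt5a, Fgf14, Fgf17, Fzd1, Wnt2 and Wnt9a. The median distance to an RD peak was 50008 bp.

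Of 91 neurotransmitter receptor genes, 24 were marked under RD, 39 under HFD and 43 under HFD-O304, and 16 held a gained and kept region, none with an RD peak at any promoter. The strongest were Gabrg3, a GABA-A receptor subunit (fold 3.35 in HFD and 3.46 in HFD-O304), Grin2a, an NMDA receptor subunit (3.15 and 3.09 over a region of 3530 bp), Drd1, the dopamine D1 receptor (3.11 and 3.13), and Adra1a, an alpha-1 adrenergic receptor (3.13 and 3.04). None of the 16 regions lay within 5000 bp of an RD peak, and the median distance was 66605 bp. Of 164 ion channel genes, 34 were marked under RD, 57 under HFD and 59 under HFD-O304, and 17 held a gained and kept region at a median distance of 117388 bp. Among these were Cacng4, a calcium channel auxiliary subunit (3.53 and 3.02), Kcnk9, a background potassium channel (3.17 and 3.0), Kcns3 (3.05 and 3.23), a modifying potassium channel subunit, and Asic4 (2.99 and 3.32), of the acid-sensing channel family.

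**Figure D4:**
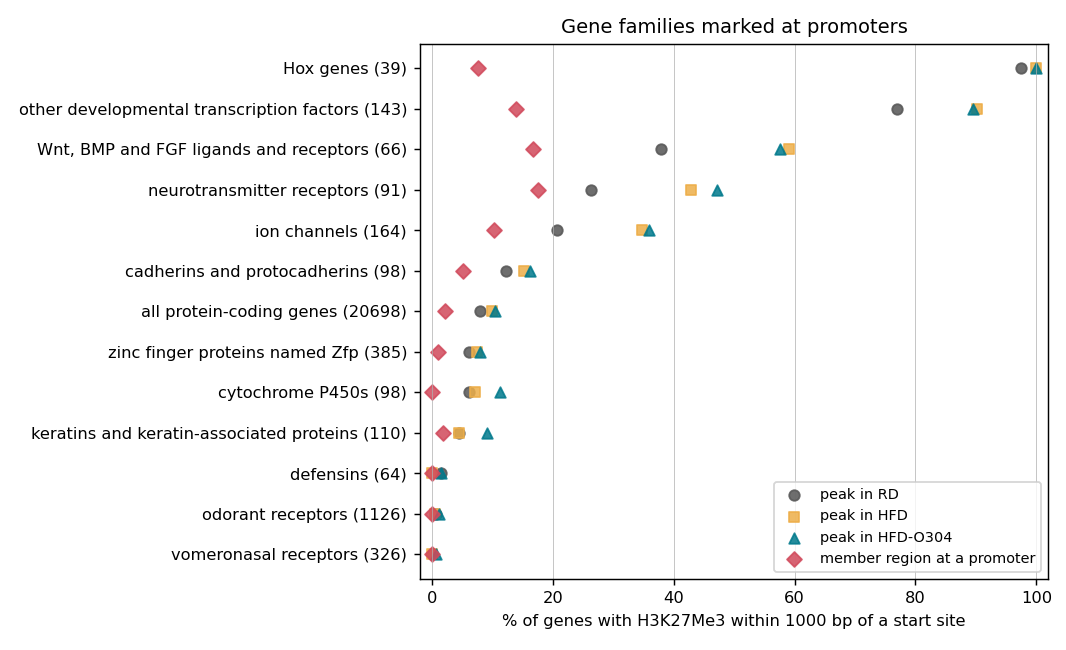
Share of genes in each family (number of genes in brackets) with an H3K27Me3 peak within 1000 bp of a start site under each diet, and share with a gained and kept region there. Developmental transcription factors were mostly marked in RD already, and those other than Hox (20 of 143), neurotransmitter receptors (16 of 91) and ion channels (17 of 164) all held gained and kept regions at a share above the 2.15% of all protein-coding genes. Over all genes, 444 held such a region and 2059 had an HFD promoter peak. The same numbers were 20 and 129 for those developmental factors, 16 and 39 for the receptors, and 17 and 57 for the channels.

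Other families held few or none. Cadherins and protocadherins had 5 of 98 (Cdh3, Cdh6, Dchs2, Fat3 and Pcdhac2), zinc finger genes named Zfp 4 of 385 and keratins 2 of 110 (Krt87 and Krtap4-13, the latter of a family with similar copies). None of 1126 odorant receptors, 326 vomeronasal receptors, 98 cytochrome P450 genes or 64 defensins held a gained and kept region.

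No gained and kept region lay at a promoter of the 23 islet endocrine markers, the 21 insulin secretion genes, the 18 genes of AMPK and energy sensing, the 14 genes of the unfolded protein response or the 18 cell cycle genes. Lists this short would hold few or none at the background of 2.15%, so the absence is not read as a result about these genes. Of 21 beta cell disallowed genes, 9 carried H3K27Me3 at a promoter under RD, 14 under HFD and 13 under HFD-O304, and 3 held a gained and kept region. These were Acot7, an acyl-CoA thioesterase (fold 3.32 in HFD and 3.21 in HFD-O304), Zfp36l1, an RNA-binding protein that destabilises transcripts (2.93 and 3.12), and Mgst1, a microsomal glutathione transferase (2.79 and 2.84). The nearest RD peak lay 4478, 2315 and 42244 bp from these regions in turn. Over all genes, 444 held a gained and kept region and 2059 had an HFD promoter peak. The 3 beside 14 therefore do not set the disallowed genes apart from other marked genes. Of 9 genes linked to beta cell dedifferentiation 1 held such a region, Cck, which encodes the gut hormone cholecystokinin (3.0 and 3.41). Phf19, a Polycomb-associated protein, was the sole one of 20 writers, readers and erasers of the lysine 27 marks (3.04 and 2.90). Of 18 imprinted genes 3 did, namely Peg12, Gnas and Grb10, with folds from 2.70 to 3.0. Col1a2, a collagen gene, was the sole one of the 12 endothelial and stromal markers (3.17 and 3.09), and none of the exocrine, duct or immune markers did.

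Position relative to RD peaks was examined for the whole set. A total of 588 regions, 26.5% (24.7% to 28.4%), lay within 5000 bp of an RD peak and 550 lay more than 100000 bp away, with a median of 29652 bp. The shares within 5000 bp in HFD alone (25.5%) and HFD-O304 alone (25.7%) differed from it by 1.04 points (−1.50 to 3.57) and 0.84 points (−1.24 to 2.98). Promoter regions outside repeats lay farther out, with a median of 61855 bp. By chromosome, gained and kept regions made up from 6.02% of the joined regions on chromosome 3 to 12.3% on chromosome 11.

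**Figure D5:**
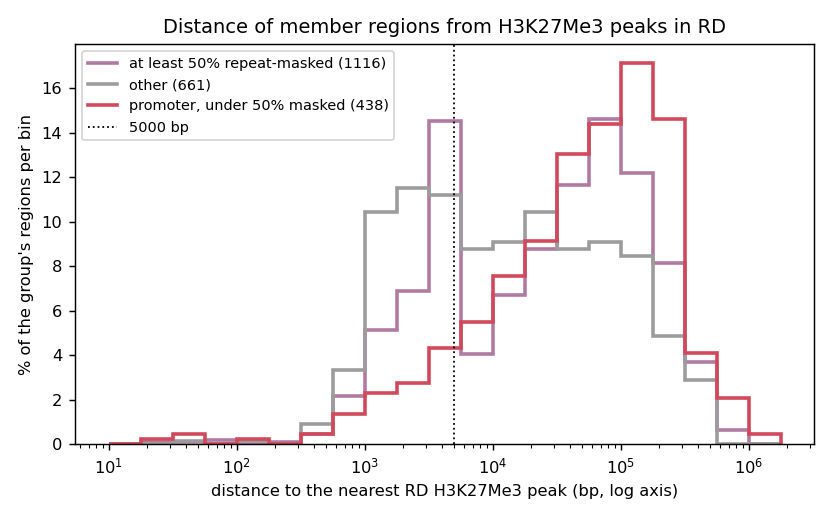
Distance of the gained and kept regions from the nearest RD H3K27Me3 peak (log axis, bp), as the percentage of each group per bin, for repeat-masked regions, promoter regions outside repeats and the rest. The dotted line stands at 5000 bp; promoter regions lie mostly to its right, with a median of 61855 bp.

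Some gained and kept regions came in runs. Within 20000 bp of one another, 382 regions formed 170 runs of 2 or more. Runs were not counted for the other classes or for all joined regions, so these numbers have no background. The runs of 6 below lay in spans that held 13 and 20 joined H3K27Me3 regions. A run of 6 spanned 51703 bp over Hoxc13, Hoxc12 and Hoxc11 (chr15:102910013-102961715), with 4 regions called in all 3 diets in the same span, and with HFD folds of 2.79 to 3.15 and HFD-O304 folds of 2.78 to 3.01. Another run of 6 (chr7:15161686-15232196) held no protein-coding gene, and 3 of its regions were repeat-masked. Runs of 4 lay over Espn, Hes2 and Acot7, at Dlx6, at Gm4881 (a family with similar copies), at Srcin1 and at Pom121l2 and Prss16. At Srcin1, a gene of neuronal signalling, no other H3K27Me3 region lay inside the run of 29263 bp (chr11:97546317-97575579).

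The acetylation lists were not used to choose the set, and they were compared with it next. An H3K27Ac peak of any diet overlapped 269 of 2215 gained and kept regions, 12.1% (10.8% to 13.6%). Against the 46.7% of the regions of all 3 diets the difference was −34.6 points (−36.2 to −32.8). It was −3.36 points (−5.35 to −1.37) against the 15.5% of HFD alone, and the set lay 8.51 points (7.13 to 9.99) above the 3.64% of HFD-O304 alone. Outside repeats the share was 16.0%, and 16.5% in HFD alone, a difference of −0.50 points (−3.60 to 2.60). In the other classes called in a pair of lists, repeats included, 33.0% of RD and HFD and 18.8% of RD and HFD-O304 overlapped H3K27Ac. A longer region has more room to overlap a peak, and the shares were not adjusted for length. Median lengths were 891 bp in the set, 1119.5 bp in all 3 diets, 353 bp in HFD alone and 397 bp in HFD-O304 alone. They were 554 bp for RD and HFD and 605 bp for RD and HFD-O304. The H3K27Ac lists on these chromosomes held 15847 (RD), 21021 (HFD) and 19787 (HFD-O304) peaks, so an overlap in RD had fewer peaks to come from. In RD, 4.06% of the set overlapped H3K27Ac, in HFD 8.76% and in HFD-O304 7.04%.

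Acetylation that ran opposite to the gain, present in RD and absent from HFD and HFD-O304, was found in 17 regions (0.77% of the set), and the background over all joined H3K27Me3 regions was 1.31%. Of the 17, 11 were at least 50% repeat-masked and 2 lay at a promoter, those of Bdnf, a neurotrophin, and Map6d1. The 5 with the highest H3K27Ac fold in RD, from 2.65 to 3.01, lay between genes in 4 cases and in an intron of Enox1 in the other.

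Acetylation that ran with the gain, present in HFD and HFD-O304 and absent from RD, was found in 43 regions (1.94%), with a background of 3.21%. Of these 28 lay at a promoter and 4 were repeat-masked. Among the 5 with the highest H3K27Ac fold, 3 were at promoters. Pdlim4, a PDZ and LIM domain gene, had an H3K27Ac fold of 2.98 in HFD and 2.88 in HFD-O304 beside H3K27Me3 folds of 3.29 and 3.19 (chr11:54068659-54069344). Fzd1, a Wnt receptor, had 2.76 and 2.92 beside 2.80 and 2.90, and Fam83f had 2.57 and 2.87 beside 3.25 and 3.0. Tgfb1, a cytokine gene, had 2.36 and 2.55 beside 3.48 and 3.35, and Acot7 had 2.58 and 2.74. In islets of mixed cells, an overlap of 2 lists does not show that the same cell carried both marks.

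A further 55 regions overlapped H3K27Ac in all 3 diets, 22 of them at a promoter and 22 repeat-masked, while 330 of the 438 promoter regions outside repeats overlapped none. The acetylated ones included a pair of microRNA loci, shown here because their mature 3p strands share a seed (bases 2 to 8, in capitals).
mmu-miR-193a-3p: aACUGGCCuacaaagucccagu
mmu-miR-193b-3p: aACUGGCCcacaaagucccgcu

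The region over Mir193a (chr11:79711755-79712906) had an H3K27Me3 fold of 2.91 in HFD and 3.01 in HFD-O304, while H3K27Ac stood at 2.50 in the RD list, 3.15 under HFD and 3.17 under HFD-O304. The region over Mir193b (chr16:13447059-13449678) had H3K27Me3 folds of 3.10 and 3.05, and H3K27Ac folds of 2.37, 2.76 and 2.66. The nearest RD peak of H3K27Me3 lay 30687 bp from the former and 301269 bp from the latter. Both were found after the values were seen, as 2 of 4 microRNA genes of the RefSeq table (GRCm38.p6) inside gained and kept regions. MicroRNA genes inside all joined regions were not counted, so the 4 have no background and nothing is read from them.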

How the data were processed

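The ChIP-seq series holds 15 samples (12 ChIP, 3 input). Per the submitters' processing notes and the study's methods, reads were mapped to GRCm38 with Bowtie2 and the 2 replicates merged. Per the file headers, the authors called broad peaks with MACS 2.1.2 on paired fragments at a q-value cutoff of 0.01 (the methods text gives the same false discovery rate beside a laxer command option), with no control file, no local background and 1 fragment per position. The deposited files give pileup (coverage signal), fold enrichment (a ratio to the uniform background) and −log10 q. The uniform background rises with depth, so folds near the limit are not on a common footing between lists.

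Peaks were joined, placed and counted with Python 3 scripts; joining was tested on simulated data. Start sites and exons came from GENCODE mouse release M21, and sequence and repeat masking from RefSeq GRCm38.p6. Scaled pileup means pileup per 1000000 kept fragments. A region's fold in a diet is that of its peak with the highest −log10 q.

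The set and the gene lists were chosen with earlier results of these data known. Regions were named by rule: the 8 with the highest smaller −log10 q, the 12 such promoter regions outside repeats, the 5 longest, the 5 with the highest H3K27Ac fold in each opposite acetylation pattern, and up to 4 examples with values per gene list. The sequence classes (tandem arrays and copies), the microRNA loci, the runs and the loci drawn were chosen after values were seen. Inputs were not used here.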

Additional observations from a re-analysis of the deposited data

How the results depend on the processing

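No paired analysis was possible because each diet had its replicates merged ahead of peak calling, and no replicate could be left out for the same reason. The number of gained and kept regions, 2215, depended on the threshold. It was 3681 with a common fold cutoff of 2.76, which removes the weakest peaks of the RD and HFD-O304 lists, 1456 with lists of equal size (14254 peaks each), 1103 with repeat-masked peaks removed and 86 with a −log10 q of at least 5 in HFD and HFD-O304. It stayed between 2089 and 2307 with a 50% overlap, with peaks up to 1000 bp apart joined and with X and Y added. The promoter share moved from 20.0% to 8.14% at the stricter q, 23.3% at the common fold, 39.9% without repeats, 24.1% with a window of 2500 bp, 16.0% upstream only and 18% by midpoint (added after seeing the data). The repeat share moved from 50.4% to 76.7% at the stricter q and, by construction, to 0% without repeats. The H3K27Ac share moved from 12.1% to 16.3% at the common fold and 17% without repeats. The share within 5000 bp of an RD peak moved from 26.5% to 29.1% with a 50% overlap, 23.2% with gaps of 1000 bp, 17.4% at the stricter q, 16.1% at the common fold, 23% without repeats and 3.43% within 1000 bp. The other 19 of 39 values stayed inside the 95% interval of the reported share, or within 1.5 times the count. Of the reported regions, 92.1% were met again at the common fold and 65.5% with lists of equal size. The RD list was the deepest of the 3, and signal below the limit of a list is not given in any of them.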

Other observations

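On chromosomes X and Y, which the rule leaves out, 92 of 1604 joined regions had the same pattern, 75 on X and 17 on Y. Of these 86 were at least 50% repeat-masked and 2 lay at a promoter. The strongest was a repeat of 259 bp on Y (chrY:31826340-31826598) with a fold of 4.64 in HFD and 4.42 in HFD-O304, called without a control as well and so uncertain.

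Repeat-masked gained and kept regions lay between 3000 and 6000 bp from an RD peak in 15.5% of cases (13.5% to 17.7%, 173 of 1116), against 10.1% of the others (8.46% to 12%). The shares were alike in HFD alone, with 15.0% and 8.07%, and in HFD-O304 alone, with 17.6% and 9.21%. This distance was chosen after the distribution was seen.

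A run of 4 regions on chromosome 14 (chr14:7380852-7405152) lies in a stretch without protein-coding genes, and in closely similar copies, so its values are uncertain, with HFD folds of 2.82 to 3.33 and HFD-O304 folds of 2.74 to 3.08.

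Besides the miR-193 loci, gained and kept regions covered the hairpins of mmu-miR-935 (fold 2.85 and 2.91) and Mir6973a (2.95 and 2.69), the latter with H3K27Ac in all 3 diets.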
